A study of Mus musculus with 18 samples.

Results

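Growing axons are built by a small set of abundant cytoskeletal and growth cone proteins, and 10 genes that encode them were followed in sorted neurons of the mouse cortex. They were Dcx, Dpysl2, Dpysl3, Dpysl4, Dpysl5, Crmp1, Gap43, Stmn1, Stmn2 and Tubb3, listed by name as cytoskeletal and growth cone genes of immature neurons. The rule names genes and no values, although earlier results of these data were known when the list was made. All 10 were found among the 24015 genes of the count table, and all 10 passed the filter on low counts in every comparison. The study title asks how the dose of Tbr1, the gene of a T-box transcription factor made in deep cortical layers, affects the connections of layer 6. RNA was sequenced from 12 libraries in 3 groups of 4, each made from about 25000 tdTomato-positive cells sorted from cortices at postnatal day 5. The first group was layer 6 neurons with the genotype label "Tbr1 Layer 6 Null" (null L6), the next was wild-type layer 5 neurons (WT L5), and the last was wild-type layer 6 neurons (WT L6). The series design calls the mutant a constitutive null, so the text says only null. The sources used here do not give the strain of these mice, the allele, or the line that drives tdTomato in each layer, which all 3 groups carry. Nothing in the labels says that replicates came from separate animals, so the p-values measure the spread between these libraries, which may be technical. The label codes number the layer 6 libraries of each group 11, 12, 21 and 22. The labels do not say whether libraries with the same first digit are parts of 1 sample. If they are, each of these groups holds 2 samples, while the SDs and SEs in the text take 4 libraries, and results with libraries summed in pairs are given for both comparisons with WT L6.

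As background, a growth cone advances when microtubules polymerise from its shaft into its periphery and meet actin filaments beneath the membrane. Doublecortin (Dcx) and the collapsin response mediator proteins (Crmp1 and the Dpysl genes) promote or steer that assembly, stathmins (Stmn1, Stmn2) bind free tubulin and promote disassembly, and Gap43 is a membrane phosphoprotein of the growth cone. Beta III tubulin (Tubb3) is the neuronal tubulin from which these microtubules are partly made, and in the cortex the whole set is known for high expression in young neurons that falls as they mature.

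The 12 libraries held 27465597 to 54899002 counts each. Levels are CPM, counts scaled to a common library total, on library sizes adjusted by the trimmed mean of M values (TMM) over all 12 libraries, as mean ± SD over 4 libraries. They are not divided by gene length, so they compare 1 gene between groups and not 1 gene with another. Tbr1 itself averaged 94.7 ± 2.42 CPM in null L6 and 176 ± 6.84 CPM in WT L6, a log2 fold change of -0.89 ± 0.035 (SE; edgeR quasi-likelihood test, Benjamini-Hochberg adjusted p = 8.53e-09), and 42.6 ± 2.37 CPM in WT L5. Tbr1 counts in null L6 were thus 0.539 times those in WT L6 and above those in WT L5. No source here says which part of the gene the allele removes, so the count does not check the label. The libraries of a group were not equally far apart. Replicates 1 and 2, and replicates 3 and 4, resembled each other in both layer 6 groups, with a chi-square per degree of freedom over genes of 8.72 to 10.4 within and 22.2 to 59.4 between these pairs in null L6, and of 3.21 to 5.05 within and 10.6 to 19.2 between them in WT L6. In WT L5 the close pairs were replicates 1 with 3 and 2 with 4, at 1.33 to 1.39, against 2.94 to 3.35 for other pairs. These close pairs were near counting noise and lay across the 2 sequencing batches of that layer. The labels do not say whether such WT L5 pairs are parts of 1 sample. If they are, WT L5 also holds 2 samples, while its SDs and SEs take 4 libraries. Xist was near 0.45 CPM in WT L6 replicates 1 and 2, between 262 and 299 CPM in the other layer 6 libraries, and between 39.5 and 41.1 CPM in the 4 WT L5 libraries. The sequencing batch was nested in layer (A for all layer 6 libraries, B and C for layer 5), so that batch and layer cannot be told apart.

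Promoter windows from RefSeq (build GRCm38.p6) covered the 250 bases before 6 transcription starts of 4 of the genes, Dpysl5, Crmp1, Tubb3 and Dcx. For Crmp1, Tubb3 and Dcx 1 window each is shown, because the first 2 genes fell by similar amounts between layers while Dcx fell little. All 3 are printed 5′ to 3′ on the strand of the gene. The T-box core GTGTGA was searched on both strands and lay in 1 of the 6 windows, before the second start of Crmp1, where its reverse complement (in capitals) began 224 bases before the start. The window before the first start of Crmp1, at 75.6% guanine and cytosine, held no match and is not shown. That core stood in 12.3% of all 32851 promoter windows of this length. The longer T-box form GGTGTGA, which contains the core, and the E-box CAGATG were in 0 of the 6 windows, against 3.33% and 14.4% of all windows. Guanine and cytosine made up 59.6% of the Crmp1 window shown, 68.0% of the Tubb3 window and 41.6% of the Dcx window shown, with 16, 21 and 3 CpG dinucleotides, against medians of 52.4% and 6 over all windows. A second Dcx window, at 44.8% guanine and cytosine, held no match and is not shown. These matches describe letters and not binding.
Crmp1, second start, chr5:37245514-37245763, plus strand: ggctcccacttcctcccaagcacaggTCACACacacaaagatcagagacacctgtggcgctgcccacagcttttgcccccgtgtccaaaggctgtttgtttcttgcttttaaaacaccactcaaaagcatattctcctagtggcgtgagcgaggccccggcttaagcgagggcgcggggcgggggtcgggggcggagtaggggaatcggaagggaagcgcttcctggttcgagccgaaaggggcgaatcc
Tubb3, chr8:123411303-123411552, plus strand: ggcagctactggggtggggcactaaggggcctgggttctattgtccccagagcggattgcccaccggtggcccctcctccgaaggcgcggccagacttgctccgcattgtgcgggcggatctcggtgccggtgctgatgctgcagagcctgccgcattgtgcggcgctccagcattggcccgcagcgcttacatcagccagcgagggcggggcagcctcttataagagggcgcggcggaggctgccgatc
Dcx, chrX:143933220-143933469, minus strand: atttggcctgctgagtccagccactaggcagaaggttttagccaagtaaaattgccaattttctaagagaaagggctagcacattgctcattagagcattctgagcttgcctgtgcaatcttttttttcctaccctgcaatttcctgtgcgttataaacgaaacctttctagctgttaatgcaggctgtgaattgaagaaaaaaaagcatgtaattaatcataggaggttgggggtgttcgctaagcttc

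In null L6 the set as a whole was close to its level in WT L6. The 10 genes together took 1.57% ± 0.0292 of all counts in null L6 and 1.63% ± 0.0241 in WT L6 (SD, n = 4 each), and the sum of their levels in null L6 was 0.981 of that in WT L6. Of the 10 genes, Gap43 rose, Dpysl2, Dpysl4 and Dpysl5 fell, and 6 did not pass the test (edgeR quasi-likelihood test, adjusted p under 0.05), with fold changes no larger than 0.21 on the log2 scale. The same test called 14.2% of the 14588 genes tested, 7.31% higher and 6.86% lower. The median log2 fold change was -0.05 over the 10 genes and 0.00034 over all genes tested.

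**Figure D1:**
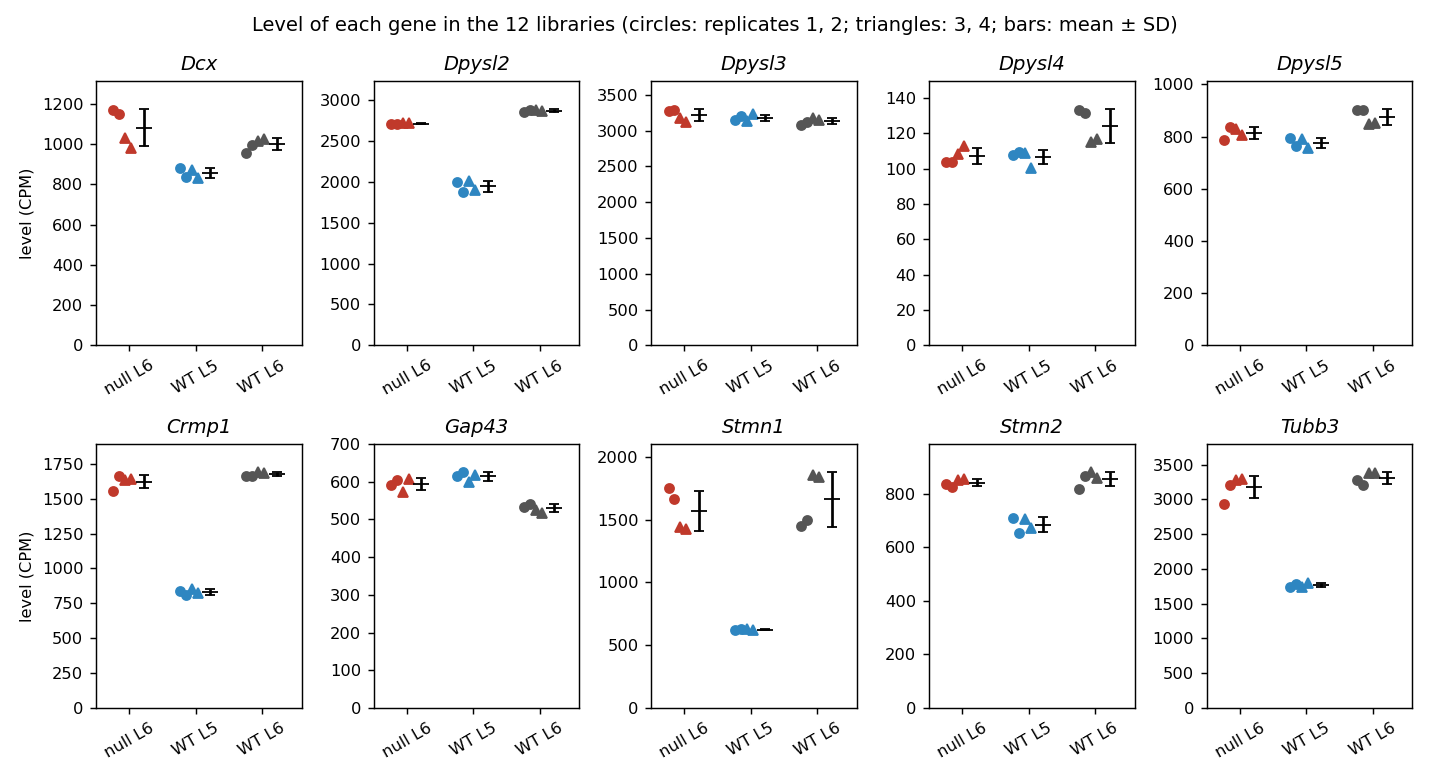
Level in CPM (linear axis from 0) of each of the 10 genes in each of 12 libraries; columns are null L6, WT L5 and WT L6, circles are replicates 1 and 2, triangles replicates 3 and 4, and bars are mean ± SD (n = 4). Crmp1, Stmn1 and Tubb3 are lower in all 4 WT L5 libraries than in any layer 6 library, and Stmn1 separates into pairs within both layer 6 groups.

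Gap43, which encodes a kinase C substrate at the growth cone membrane, had 591, 605, 573 and 605 CPM in null L6, against 531, 542, 525 and 517 CPM in WT L6. The groups did not overlap, and the log2 fold change was 0.17 ± 0.029 (edgeR quasi-likelihood test, adjusted p = 0.00164). Gap43 was the only 1 of the 10 that rose, and it stayed called when any single library was left out (adjusted p of at most 0.00794).

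Among the collapsin response mediators, which bind tubulin and relay semaphorin signals, the called genes moved down. Dpysl2, whose protein binds tubulin dimers and promotes axon formation, had 2705, 2701, 2716 and 2716 CPM in null L6, against 2852, 2881, 2883 and 2868 CPM in WT L6. That is a log2 fold change of -0.08 ± 0.016 (edgeR quasi-likelihood test, adjusted p = 0.00393), small but larger than the spread, since the SD was 7.80 CPM in null L6 and 14.4 CPM in WT L6. Dpysl4 had 104, 104, 108 and 113 CPM in null L6, against 133, 131, 115 and 117 CPM in WT L6. The ranges did not overlap (log2 fold change -0.21 ± 0.051, adjusted p = 0.0138), but most of the distance came from WT L6 replicates 1 and 2. Without these 2 libraries, the ones with low Xist, the log2 fold change was -0.11 (adjusted p = 0.137, in a range of 0.00144 to 0.235 over all alternatives).

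Dpysl5, whose protein is enriched in developing neurons, had 786, 837, 828 and 805 CPM in null L6, against 899.8, 901, 849 and 850.5 CPM in WT L6. Its log2 fold change was -0.10 ± 0.031 (edgeR quasi-likelihood test, adjusted p = 0.0412). The call ended when null L6 replicate 1, 3 or 4 was left out (adjusted p = 0.0834, 0.0566 and 0.0841) and when WT L6 replicate 1 or 2 was left out (adjusted p = 0.122 and 0.129). Crmp1 had 1554 to 1661 CPM in null L6 and 1663 to 1690.1 CPM in WT L6, just apart, and did not pass the test (log2 fold change -0.05 ± 0.024, adjusted p = 0.245). Dpysl3, whose protein also bundles actin, averaged 3215 ± 82.4 CPM in null L6 and 3131 ± 42.1 CPM in WT L6, which overlapped (adjusted p = 0.280). In all, 5 of the 10 genes had groups that did not overlap, 4 lower and 1 higher in null L6, against 19.9% of all genes tested, 9.79% lower and 10.1% higher.

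Dcx, Tubb3 and the stathmin genes did not pass the test. Dcx had 1170.0, 1149, 1029 and 983 CPM in null L6, against 958, 997, 1018 and 1028 CPM in WT L6. Null L6 replicates 1 and 2 were above all other layer 6 libraries, and replicates 3 and 4 lay on either side of the top of WT L6 (log2 fold change 0.11 ± 0.049, adjusted p = 0.159). Without null L6 replicate 4 it passed (log2 fold change 0.16, adjusted p = 0.0291, in a range of 0.0291 to 0.607 over all alternatives), which took the count of genes that rose to 2. Tubb3 had 2939, 3203, 3283 and 3286 CPM in null L6, against 3281, 3201, 3375 and 3376 CPM in WT L6, with overlap (log2 fold change -0.06 ± 0.033, adjusted p = 0.289).

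Stmn1 varied most within both layer 6 groups. Stmn1 had 1749, 1664, 1438 and 1425 CPM in null L6, against 1448, 1497, 1855 and 1842 CPM in WT L6. Replicates 1 and 2 were above replicates 3 and 4 in null L6, by 0.25 on the log2 scale, and below them in WT L6, with a gap of -0.33, while the groups differed by -0.08 ± 0.086 (adjusted p = 0.594). The summed level of 15 dividing progenitor markers, a list on which Stmn1 does not stand, was 3249, 3193, 3159 and 3122 CPM in null L6, against 3086, 3217, 3357 and 3364 CPM in WT L6. Most of this sum is Sox11, a gene also expressed in young postmitotic neurons. The gap of Sox11 between the same pairs was 0.08 in null L6 and -0.14 in WT L6 on the log2 scale, with the signs of Stmn1. The other 14 markers summed to 1219, 1211, 1239 and 1243 CPM in null L6, against 1098, 1108, 1108 and 1104 CPM in WT L6. In that sum replicates 1 and 2 were below replicates 3 and 4 in null L6 and overlapped them in WT L6. A part of progenitor cells in the Stmn1 pattern was not tested. Stmn2, a membrane-bound stathmin of the growth cone, averaged 842 ± 13.3 CPM in null L6 and 856 ± 25.7 CPM in WT L6 and did not pass the test (adjusted p = 0.643).

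The pairs limit this comparison. In 5 of the 10 genes (Dcx, Dpysl3, Stmn1, Stmn2 and Tubb3) the gap between pairs within a group was larger than the difference between null L6 and WT L6. When libraries were summed in pairs, 2 against 2, 0 of the 10 genes were called (edgeR, adjusted p under 0.05), against 3.15% of 15230 genes. Before adjustment, 3 of the 10 had a p under 0.05 in that edgeR fit. The shares of all genes with such a pair gap or such an unadjusted p were not counted. Markers of other cell types also differed. Astrocyte markers summed to 1483 to 1519 CPM in null L6 and 1227 to 1351 CPM in WT L6, with 8 of 15 higher and 2 lower. Dividing progenitor markers other than Sox11 summed to 1211 to 1243 CPM in null L6 and 1098 to 1108 CPM in WT L6, and of all 15, Sox11 included, 7 were higher and 1, Sox11 itself, lower. Interneuron markers summed to 373 to 384 CPM in null L6 and 399 to 419 CPM in WT L6 (1 of 13 tested higher, 5 lower), and vascular and blood markers to 348 to 367 CPM in null L6 and 380.2 to 391.6 CPM in WT L6 (0 of 12 tested higher, 2 lower). Oligodendrocyte lineage markers summed to 269.7 to 284 CPM in null L6 and 281 to 293 CPM in WT L6 (2 of 10 tested higher, 5 lower, with Opalin at 0 counts in both groups), and microglia markers to 140.4 to 155 CPM in null L6 and 145 to 151.4 CPM in WT L6 (0 of 13 called, edgeR). Their part in the differences of the 10 genes was not tested.

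Between the layers of wild-type cortex the differences were larger. Crmp1, Stmn1 and Tubb3 were 2.03-fold, 2.67-fold and 1.88-fold lower in WT L5 than in WT L6, Dpysl2 was 1.48-fold lower, and Dcx, Dpysl4, Dpysl5 and Stmn2 were lower by smaller amounts under TMM scaling, though not under each scaling tried. Gap43 rose in WT L5 under the same scaling, and Dpysl3 did not pass the test. Thus 1 of the 10 genes rose and 8 fell (edgeR quasi-likelihood test, adjusted p under 0.05), in a comparison that called 85.5% of 14927 genes, 42.2% higher and 43.4% lower. The median log2 fold change was -0.28 over the 10 genes and -0.01 over all genes tested. In these bulk libraries, fewer cells that express a gene and less of its RNA per cell cannot be told apart.

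**Figure D2:**
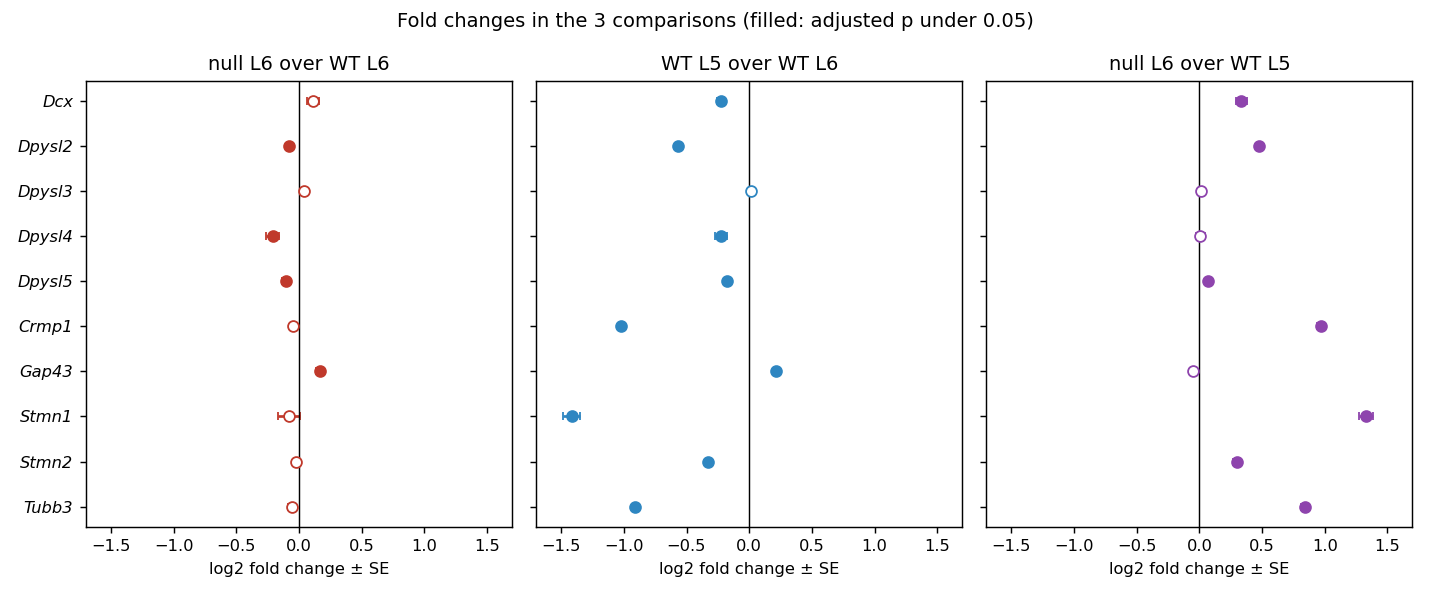
Log2 fold change ± SE of the 10 genes in the 3 comparisons (edgeR, n = 4 libraries a group), on 1 shared axis; filled points have an adjusted p under 0.05. The points for null L6 over WT L6 lie within 0.21 of 0, whereas those for WT L5 over WT L6 reach -1.42 at Stmn1.

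Stmn1 showed the largest difference of the 10. It had 624, 626, 627 and 622 CPM in WT L5, against 1448, 1497, 1855 and 1842 CPM in WT L6. The lowest WT L6 library was far above every WT L5 library, and the log2 fold change was -1.42 ± 0.067 (edgeR quasi-likelihood test, adjusted p = 4.70e-11). Stmn2 differed less, with 709, 652, 706 and 672 CPM in WT L5, against 819.8, 865, 880.3 and 858 CPM in WT L6 (log2 fold change -0.33 ± 0.030, adjusted p = 9.61e-08). The ratio of Stmn2 to Stmn1, which does not depend on how libraries are scaled, was therefore 1.10 ± 0.0437 in WT L5 and 0.521 ± 0.0591 in WT L6, and in null L6 it was 0.541 ± 0.0630.

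Tubb3 and Crmp1 followed with tight groups. Tubb3, the tubulin subunit of the set, had 1739, 1789.7, 1742 and 1801 CPM in WT L5, against 3281, 3201, 3375 and 3376 CPM in WT L6 (log2 fold change -0.91 ± 0.023, edgeR quasi-likelihood test, adjusted p = 4.89e-14). Crmp1 had 837, 807, 854 and 821 CPM in WT L5, against 1665, 1663, 1690.1 and 1683 CPM in WT L6 (log2 fold change -1.02 ± 0.021, adjusted p = 5.88e-15). For both genes every WT L5 library was below every WT L6 library by several times the SD of either group.

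The collapsin response mediators differed in size and, under TMM scaling, in call, while with equal weights for pan-neuronal genes all 5 were lower in WT L5. Dpysl2 had 2001, 1876, 2005 and 1893 CPM in WT L5, against 2852, 2881, 2883 and 2868 CPM in WT L6 (log2 fold change -0.57 ± 0.024, edgeR quasi-likelihood test, adjusted p = 1.47e-11). Dpysl3 had 3148, 3207, 3136 and 3226 CPM in WT L5, against 3079.9, 3118, 3178 and 3149 CPM in WT L6. Those ranges overlapped in part (log2 fold change 0.02 ± 0.020, adjusted p = 0.442). Dpysl5 fell by 0.18 on the log2 scale (adjusted p = 1.58e-05) and Dpysl4 by 0.22 (adjusted p = 0.000571), neither with overlap between groups. Ratios within the family differed in the same way between layers. Crmp1 over Dpysl5 was 1.07 ± 0.0152 in WT L5 and 1.92 ± 0.0788 in WT L6, and Dpysl2 over Dpysl3 was 0.612 ± 0.0297 in WT L5 and 0.917 ± 0.00931 in WT L6.

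Gap43 and Dcx, both used as labels of immature neurons, moved in opposite directions under TMM scaling, and in the same direction under both pan-neuronal scalings. Gap43 had 615, 624, 598 and 618 CPM in WT L5, against 531, 542, 525 and 517 CPM in WT L6 (log2 fold change 0.21 ± 0.022, edgeR quasi-likelihood test, adjusted p = 3.95e-07). Dcx had 884, 838, 874 and 834 CPM in WT L5, against 958, 997, 1018 and 1028 CPM in WT L6 (log2 fold change -0.23 ± 0.027, adjusted p = 1.85e-06). Neither pair of groups overlapped. The ratio of Gap43 to Dcx was 0.716 ± 0.0313 in WT L5 and 0.529 ± 0.0241 in WT L6. In all, 9 of the 10 genes had groups without overlap, 8 lower and 1 higher in WT L5, where 81.2% of all genes tested had none, 41% lower and 40.2% higher. With libraries summed in pairs, 2 against 2, the 9 calls between layers held, in a fit that called 78.5% of 15633 genes.

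Markers of other cell types also differed between the layers. Summed marker levels for astrocytes were 7539 to 7561 CPM in WT L5 and 1227 to 1351 CPM in WT L6 (14 of 15 markers higher and 1 lower), those for the oligodendrocyte lineage 1237 to 1249 CPM in WT L5 and 281 to 293 CPM in WT L6 (11 of 11 tested higher, with Opalin at 0 counts in all WT L6 libraries), those for microglia 439.8 to 449.7 CPM in WT L5 and 145 to 151.4 CPM in WT L6 (13 of 13 higher), and those for vascular and blood cells 865 to 882 CPM in WT L5 and 380.2 to 391.6 CPM in WT L6 (12 of 12 tested higher, with Hba-a1 at 0 counts in both groups). Dividing progenitor markers were mixed, with 5 of 15 higher and 7 lower. Their sum was 1385 to 1412 CPM in WT L5 and 3086 to 3364 CPM in WT L6, mostly through Sox11 (467 ± 7.75 CPM in WT L5 and 2152 ± 129 CPM in WT L6), and the other 14 summed to 925 to 937 CPM in WT L5 and 1098 to 1108 CPM in WT L6. Among cycling markers Cdk1 and Ccnb1 were higher in WT L5 (log2 fold changes 0.37 and 0.15) and Mki67 lower (-1.25). Top2a (-0.015) and Aurkb (0.19) did not pass the test. The largest changes of the list were those of Neurog2 (-5.14), Eomes (-3.37), Sox11 (-2.21) and Neurod1 (-2.02), all lower in WT L5. The part of other cell types in the differences of the 10 genes was not tested.

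**Figure D3:**
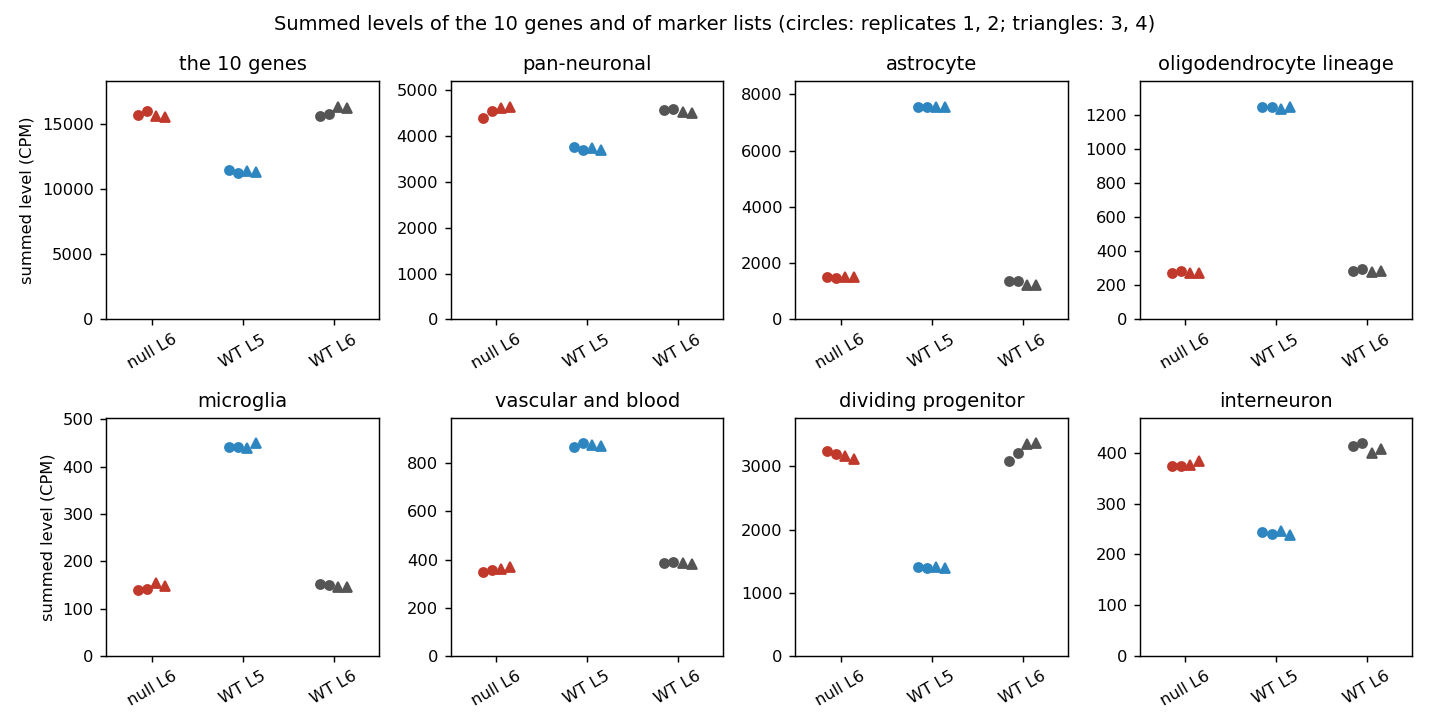
Summed level in CPM (linear axes from 0) of the 10 genes and of 7 marker lists in each of 12 libraries; columns are null L6, WT L5 and WT L6, circles are replicates 1 and 2 and triangles replicates 3 and 4. The sums for the 10 genes and for pan-neuronal, dividing progenitor (mostly Sox11) and interneuron markers are lower in WT L5, and those for glial, microglial and vascular markers are higher there.

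Because so many genes differed between layers, the way the libraries were scaled changed several calls. Scaled to the summed counts of 20 pan-neuronal genes, which moved the median of all genes by 0.29 on the log2 scale, 4 of the 10 genes were higher in WT L5 and 4 lower, with 8346 genes higher and 4379 lower in all. In that scaling Dcx (0.068, adjusted p = 0.0312) and Dpysl5 (0.12, adjusted p = 0.000354) changed sign and passed the test as higher, Dpysl4 changed sign without passing (0.073), Dpysl3 was higher (0.31), and Stmn2 did not pass (-0.03). With equal weight for each pan-neuronal gene, a setting added after the data were seen, the median of all genes moved to -0.39, all 10 genes were lower (Gap43 by -0.17, Dpysl3 by -0.36), and 4162 genes were higher and 8735 lower in all. The 20 pan-neuronal genes were themselves split, with 12 higher, 7 lower and a median of 0.43, and Uchl1 and Rtn1, the most abundant of them, had log2 fold changes of -1.04 and -1.77.

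Stmn1, Crmp1, Tubb3 and Dpysl2 were lower in WT L5 and passed the test in all 20 alternatives run for this comparison. Their log2 fold changes under summed pan-neuronal scaling were -1.121, -0.72, -0.61 and -0.27, and under equal weights -1.79, -1.40, -1.29 and -0.95. A change of scaling shifts the log2 fold changes of all genes by about the same amount. The distance of a gene from the median of all genes is therefore nearly fixed and adds no further check. Within each sequencing batch of WT L5 the test gave the same calls for all 10 genes as with both batches together. The close pairs of WT L5 libraries lie across these batches, so the batches may not hold separate samples.

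**Figure D4:**
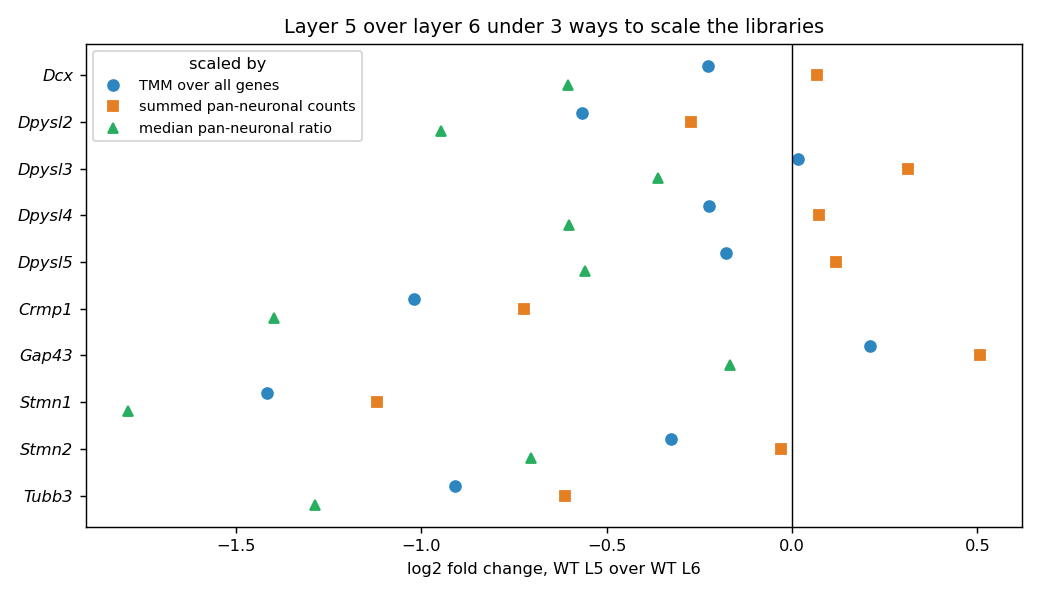
Log2 fold change of WT L5 over WT L6 for the 10 genes (1 row each) when libraries were scaled by TMM over all genes, by the summed counts of 20 pan-neuronal genes, or by their median ratio. Stmn1, Crmp1, Tubb3 and Dpysl2 stay left of 0 in all 3, and Gap43 changes from 0.51 under the summed counts to -0.17 under the median ratio.

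Null L6 was also compared with WT L5, in a comparison that shares its libraries with the other 2. Of the 10 genes 7 were higher in null L6 and 0 lower (edgeR quasi-likelihood test, 7 of the 10 with an unadjusted p under 0.05), where the test called 84.3% of 15013 genes, 42.4% higher and 41.8% lower. Stmn1 was 1.33 ± 0.053 higher on the log2 scale, Crmp1 0.97 ± 0.026, Tubb3 0.85 ± 0.031, Dpysl2 0.48 ± 0.023, Dcx 0.34 ± 0.046 and Stmn2 0.30 ± 0.029 (largest adjusted p of these 7.19e-06, for Dcx). Those 6 genes had groups without overlap, where 79.9% of all genes tested had none, 40.3% higher and 39.6% lower. Dpysl5 passed narrowly (0.07 ± 0.027, adjusted p = 0.0287) and no longer did without WT L5 replicate 2 or 4 (adjusted p = 0.0831 and 0.0902). Under summed pan-neuronal scaling 4 of the 10 genes were higher and 4 lower, with a median log2 fold change of 0.03. In all, 4293 genes were higher and 8272 lower, with a median of -0.29. With equal weights for the pan-neuronal genes the median of the 10 genes was 0.72, and Gap43 was higher in null L6 (0.36). In that scaling 8870 genes were higher and 4053 lower in all, with a median of 0.40.

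Under TMM scaling, the genes that fell or rose in null L6 did not order alike against layer 5. Dpysl4 averaged 107 ± 4.34 CPM in null L6, 107 ± 4.22 CPM in WT L5 and 124 ± 9.47 CPM in WT L6, and null L6 and WT L5 did not differ beyond their spread (adjusted p = 0.865). Gap43 averaged 594 ± 15.1 CPM in null L6, 614 ± 11.4 CPM in WT L5 and 529 ± 10.6 CPM in WT L6, and the first 2 groups overlapped (log2 fold change -0.05 ± 0.026, adjusted p = 0.0982). Both results depend on the scaling. Over all alternatives the log2 fold change of null L6 over WT L5 ranged from -0.28 to 0.41 for Dpysl4. For Gap43 it ranged from -0.34 to 0.36. Dpysl5 averaged 814 ± 22.9 CPM in null L6, 776 ± 19.3 CPM in WT L5 and 875 ± 29.2 CPM in WT L6, with null L6 between the other 2 groups. Dpysl2 averaged 2709 ± 7.80 CPM in null L6, 1944 ± 68.6 CPM in WT L5 and 2871 ± 14.4 CPM in WT L6. Null L6 lay much nearer to WT L6 for Dpysl2.

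Shares within the set do not depend on scaling between libraries. They are percentages of the summed counts of the 10 genes, which also reflect gene length and move with the other genes of the set. Dpysl3 held 20.4% ± 0.342 in null L6, 27.9% ± 0.566 in WT L5 and 19.5% ± 0.193 in WT L6. Tubb3 held 20.2% ± 1.13 in null L6, 15.5% ± 0.385 in WT L5 and 20.6% ± 0.281 in WT L6. Stmn1 held 9.97% ± 0.958 in null L6, 5.49% ± 0.0402 in WT L5 and 10.3% ± 1.14 in WT L6. Dpysl2 held 17.2% ± 0.276 in null L6, 17.1% ± 0.485 in WT L5 and 17.9% ± 0.351 in WT L6. Gap43 held 3.77% ± 0.0923 in null L6, 5.39% ± 0.130 in WT L5 and 3.30% ± 0.129 in WT L6. By share, null L6 was lowest of the 3 groups for Dpysl4 (0.682% ± 0.0351 in null L6, 0.936% ± 0.0363 in WT L5, 0.775% ± 0.0760 in WT L6) and for Dpysl5 (5.17% ± 0.125, 6.81% ± 0.127 and 5.46% ± 0.300 in the same order). For Dpysl4 and Dpysl5 the order of the groups thus differed between levels and shares, while for Dpysl2 and Gap43 it did not. The group nearest to null L6 did differ for Dpysl2 and Gap43. By share it was WT L5 for Dpysl2 and WT L6 for Gap43, and by level the reverse. The set as a whole took 1.57% ± 0.0292 of all counts in null L6, 1.125% ± 0.00773 in WT L5 and 1.63% ± 0.0241 in WT L6.

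Of other cytoskeletal genes, 25% of tubulin isotypes tested, 7.14% of microtubule-associated genes, 44% of growth cone membrane and actin genes and 33.3% of upstream and partner genes were called in null L6 against WT L6, beside 14.2% of all genes tested. Between layers these shares were 100%, 92.9%, 96% and 85.2% in the same order of lists, beside 85.5% of all genes tested. Of 12 tubulin isotypes tested, 2 rose and 1 fell in null L6, and the median was -0.03. Tubb2a rose (log2 fold change 0.17 ± 0.032), Tuba4a, at 32.8 ± 2.24 CPM in null L6 and 23.8 ± 3.37 CPM in WT L6, rose (0.46 ± 0.088), and Tubb2b fell (-0.13 ± 0.022). Between layers 4 of the 12 were higher in WT L5 and 8 lower, with a median of -0.43 (5 and 6 with summed pan-neuronal scaling, 3 and 8 with equal weights). Tuba1c, which encodes an alpha tubulin, was lowest (-3.06 ± 0.202), then Tubb2b (-0.90 ± 0.026) and Tuba1b (-0.89 ± 0.046), and Tuba4a, another alpha tubulin gene, was highest (1.96 ± 0.072). Tubulin genes are near copies of each other, and reads that fit several of them may have been split or dropped in the authors' counting, so single isotypes are uncertain.

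Of 28 microtubule-associated genes, 2 rose and 0 fell in null L6, Map4 (0.15 ± 0.034) and Map1b (0.11 ± 0.021), and 12 were higher and 14 lower in WT L5 (20 and 5 with summed pan-neuronal scaling, 6 and 20 with equal weights). The highest in WT L5 were Map1a (2.62 ± 0.031), a microtubule-associated protein of mature neurons, and the axonal transport motors Kif1a (2.19 ± 0.026) and Kif5a (1.29 ± 0.027), and the lowest included the severing enzymes Katna1 (-1.01 ± 0.065) and Spast (-0.68 ± 0.024). Relatives of the 10 genes, named after their values were seen, moved less than Stmn1. Stmn3 fell by 0.39 and Stmn4 by 0.19 in WT L5, and of the doublecortin-like kinases Dclk1 rose by 0.22 and Dclk2 fell by 0.17, all under TMM scaling. With summed pan-neuronal scaling Stmn4 (0.10, adjusted p = 0.237) and Dclk2 (0.12) changed sign, and with equal weights Dclk1 did (-0.16).

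Of 25 growth cone membrane and actin genes, 7 rose and 4 fell in null L6, with a median of 0.05. Tmsb4x, encoding the actin-binding thymosin beta, rose (0.23 ± 0.031) and the membrane glycoprotein genes Gpm6a (-0.35 ± 0.048) and Gpm6b (-0.23 ± 0.029) fell. Between layers 6 were higher and 18 lower in WT L5, with a median of -0.50 (10 and 13 with summed pan-neuronal scaling, 4 and 21 with equal weights). L1cam, an axonal adhesion molecule, fell (-1.41 ± 0.024), as did Nrn1 (-1.48 ± 0.070), and so did Basp1 (-1.01 ± 0.028) and Marcks (-0.61 ± 0.025), which encode kinase C substrates of the same kind as Gap43 and were named after their values were seen. Gpm6b was higher (0.99 ± 0.022).

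Of 27 upstream and partner genes, 5 rose and 4 fell in null L6, and 11 were higher and 12 lower in WT L5 (20 and 6 with summed pan-neuronal scaling, 8 and 19 with equal weights). Prkcb, which encodes a protein kinase C, the kinase family that phosphorylates Gap43, averaged 119.8 CPM in null L6 and 191 CPM in WT L6 (log2 fold change -0.67 ± 0.060), and 1022 CPM in WT L5 (2.42 ± 0.053 against WT L6). Nrp1, a semaphorin 3A receptor upstream of the collapsin response mediators, rose in null L6 (0.21 ± 0.032) and fell in WT L5 (-2.35 ± 0.025), and its partner Plxna2 fell in both (-0.24 ± 0.047 in null L6 and -1.74 ± 0.023 in WT L5). The kinases Pak3 (0.44 ± 0.043) and Pak1 (0.30 ± 0.031) rose in null L6. Cdk5 and Gsk3b, kinases that phosphorylate Dpysl2 protein, had adjusted p-values of 0.753 and 0.531 in null L6 against WT L6.

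**Figure D5:**
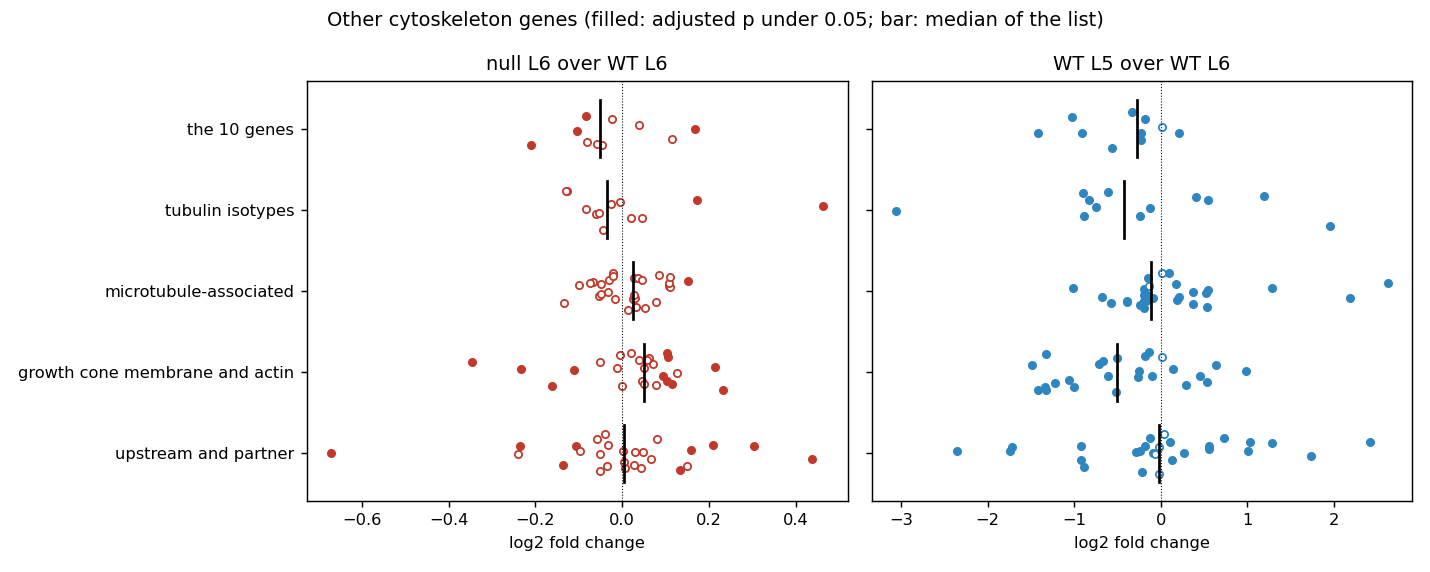
Log2 fold change of each tested gene in 5 lists, for null L6 over WT L6 (left) and WT L5 over WT L6 (right, on a wider axis); filled points have an edgeR adjusted p under 0.05 and bars are list medians. The medians for the 10 genes are -0.05 and -0.28, and those for growth cone membrane and actin genes 0.05 and -0.50.

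The genes whose profile lay nearest to that of Dcx, by the root mean square difference of centred log2 CPM over the 12 libraries among 4766 genes with a mean of at least 50 CPM, were Scaf11 (0.0412), Ankrd17 (0.0421) and Crk (0.0439). Those nearest to the mean profile of the 10 genes were Cadm4 (0.0221), Ldoc1l (0.0247) and Smurf1 (0.0247). All these profiles share libraries and scaling, and the likeness is a description only.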

How the data were processed

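RNA was measured in 12 libraries and ChIP-seq in 6 samples that are not used here, since peak coordinates are in mm9 and no annotation of that build was at hand. The RNA table deposited by the authors gives raw read counts for each gene, not normalized. Per the submitters' processing notes, STAR 2.5.2b, HTSeq and bedtools were used with mm9. Which annotation and strand option HTSeq ran with is not stated in the labels. A further table deposited by the authors gives 14567 genes as scores, in whole numbers equalised between libraries by unstated steps, and it served only as an alternative and for the closing observation.

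The main test was edgeR 4.0.16 (R 4.3.3) on counts of the 2 groups compared (TMM, filterByExpr by group, quasi-likelihood F-test, Benjamini-Hochberg over all genes tested), and genes with an adjusted p under 0.05 were called. The script was tested on simulated data. Levels are CPM on TMM-scaled library sizes over 12 libraries, and totals of 27465597 to 54899002 counts set their precision. Alternatives were DESeq2 1.42.0, relative log expression (RLE) size factors, no filter, 1 fit of all libraries, the replicate number as a block, each library left out, libraries summed in pairs, pan-neuronal scaling, single batches, no low-Xist libraries and limma 3.58.1 on log2(score + 1). Replicate numbers did not pair the samples.

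The 10 genes and all lists were chosen with earlier results of these data known. Named were the 10 genes, Tbr1, called list genes with the largest fold changes in each direction at a mean of at least 5 CPM, nearest profiles and, after their values were seen, the relatives marked as such, Cdk5, Gsk3b, Opalin, Hba-a1, Sox11, Cdk1, Mki67 and Top2a. Ccnb1, Aurkb, Neurog2, Eomes and Neurod1 were also named after their values were seen. Promoter windows were matched by symbol, and the windows at hand did not cover all 10 genes. Any windows of the 10 genes on a single chromosome were also skipped, and windows for 4 of the 10 genes were used. The shares over all windows kept that chromosome.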

Additional observations from a re-analysis of the deposited data

How the results depend on the processing

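Against WT L6, the count of the 10 genes lower in null L6 was 1 in place of 3 with the replicate block, with equal weight for the pan-neuronal genes, without the low-Xist libraries and with limma on the deposited scores. In that order, these settings called 10.5%, 13.2%, 10.2% and 12.6% of all genes tested, against 14.2% in the main test. The count was 0 lower and 0 higher with libraries summed in pairs, which called 3.15% of all genes tested. Leaving out 1 library gave 1 to 2 higher and 2 to 3 lower, with 11.1% to 12.5% of all genes tested called. Between layers the counts were 4 higher and 4 lower with summed pan-neuronal scaling, and 0 higher with equal weights or with limma on scores. In that order, these settings called 85.2%, 86.4% and 81% of all genes tested. Null L6 against WT L5 gave 4 higher and 4 lower with summed pan-neuronal scaling, and 1 lower with RLE size factors. Those settings called 83.7% and 84.3% of all genes tested.

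Signs reversed for WT L5 over WT L6 at Dpysl3 with no filter (-0.024), pairs (-0.0046), equal weights (-0.36), no low-Xist libraries (-0.017) and scores (-0.043), at Gap43 with equal weights (-0.17) and scores (-0.0082), and with summed scaling at Dcx (0.068), Dpysl4 (0.073) and Dpysl5 (0.12). For null L6 over WT L5 they reversed with summed scaling at Dpysl3 (-0.27), Dpysl4 (-0.28) and Dpysl5 (-0.22), at Gap43 with equal weights (0.36) and scores (0.15), and at Dpysl4 with RLE (-0.0049), batch B alone (-0.013) and a library left out (-0.019 to 0.031). For null L6 over WT L6 0 signs reversed. The causes were not tested. Shares within the set moved by less than 1 SD in 120 of 120 values recomputed.

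Replicate numbers are not shown to pair the samples, since same-numbered null L6 and WT L6 libraries correlated at -0.125 to -0.068. With the replicate block, Dpysl4 (adjusted p = 0.0605) and Dpysl5 (0.0777) lost their calls in null L6 against WT L6, as did Dpysl5 against WT L5 (0.0608), and between layers 0 calls among the 10 genes changed. A stricter peak threshold and summit overlap for TBR1 regions at the 10 genes were not run. In the summed pairs 479 genes were called between null L6 and WT L6, against 2068.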

Other observations

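In the table of scores deposited by the authors, which were equalised between libraries, several of the 10 genes take tied values within a group. These ties are not shown to be the top of the scale, since Tubb3 reaches 1791 in WT L6. Dpysl2 has a score of 1633 in all 8 layer 6 libraries, null L6 and WT L6 alike, and a mean of 1222 in WT L5. Dpysl3 has 1733 and Tubb3 1681 in all 4 null L6 libraries. A difference such as that of Dpysl2 between null L6 and WT L6 in the counts, 2709 ± 7.80 CPM against 2871 ± 14.4 CPM, therefore has no counterpart in those scores. Gap43 has a mean score of 575.5 in null L6, 519 in WT L5 and 522 in WT L6, so its higher level in WT L5 by counts does not appear there.

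The nearest profile to each other gene of the set, looked up after the data were seen, was measured by the root mean square log2 difference over 12 libraries. It was Sf3b2 for Dpysl2 (0.0205), Mark1 for Dpysl3 (0.0221), Map2k4 for Dpysl4 (0.0538), Rusc2 for Dpysl5 (0.0184) and Dpf1 for Crmp1 (0.0287). It was Pitrm1 for Gap43 (0.0326), Rsbn1 for Stmn1 (0.0546), Atp6v1d for Stmn2 (0.0337) and Cdk4 for Tubb3 (0.0274).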
